A study of Mus musculus with 6 samples.

Results

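The genes described here carry cholesterol through a lipid-laden cell, from uptake at the surface to storage as ester and release to an acceptor. They are 9 genes, taken by name for their role in sterol handling in foam cells: Msr1, Scarb1, Npc1, Npc2, Soat1, Nceh1, Abca1, Abcg1 and Apoe. These genes and the gene lists used below were chosen with earlier results of these data known. All 9 are among the 24984 genes listed, and all passed the filter on low counts that left 14065 genes to test. RNA was sequenced from inguinal white fat, which lies under the skin of the groin, of mice fed a high-fat diet. The groups were Mpst knockout (n = 3) and wild type, WT (n = 3), and both received the high-fat diet. Mpst encodes a sulfurtransferase that makes hydrogen sulfide. The sources used here do not give the age, sex or strain of the mice, the kind of knockout allele, or whether replicates are separate animals, so a p-value covers only the spread among these samples, and that spread may be technical.

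Macrophages take up lipoprotein cholesterol through scavenger receptors, free it from its esters in the lysosome and hand it from NPC2 to NPC1 for export. In the endoplasmic reticulum SOAT1 joins cholesterol to fatty acids again for storage in droplets, and NCEH1 splits those esters. Free cholesterol then leaves the cell through the transporters ABCA1 and ABCG1 to acceptors that include apolipoprotein E. In obese fat, adipocytes hold a large store of cholesterol of their own, and macrophages gather around dying adipocytes and fill with lipid.

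The libraries held 8054560 to 22458630 counts in genes, the smallest being knockout replicate 1. Mpst stood at 0.358, 0.440 and 0.382 CPM (counts per 1000000 counts of the scaled library) in the knockout libraries and at 83.2, 84.7 and 75.4 CPM in the WT libraries, so the genotype labels of all 6 libraries held. The tissue label was met by adipocyte transcripts, with Adipoq, which encodes adiponectin, at 3921 ± 359 CPM in knockout and 4983 ± 758 CPM in WT (SD, n = 3 each). Summed skeletal muscle transcripts reached 2090 CPM in knockout replicate 3 and 884.7 CPM in WT replicate 2, against 43.6 to 143.3 CPM in the other libraries.

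Of the 9 genes, Nceh1, Msr1 and Soat1 rose in the knockout by 2.99-fold, 2.83-fold and 2.58-fold, and none fell. These calls are from edgeR's quasi-likelihood test at an adjusted p under 0.05, with p adjusted over all 14065 genes. In the same comparison 4.76% of all tested genes were called higher and 2.65% lower. The other 6 genes did not pass the test. Their log2 fold changes (knockout over WT) were 0.68 for Abca1, 0.49 for Abcg1, 0.33 for Scarb1, 0.31 for Npc1, 0.09 for Npc2 and −0.62 for Apoe. The median over the 9 genes was 0.49 on the log2 scale, against 0.01 over all tested genes. Because earlier results were known when the genes and lists were chosen, their counts and medians beside all tested genes are descriptive only. The libraries of the groups did not overlap for 5 genes higher in the knockout and for 1 gene, Apoe, lower, while over all tested genes 17.8% were higher and 15.5% lower without overlap. Because the tissue was sequenced in bulk, a change in the number of cells of a type and a change in RNA per cell cannot be told apart.

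**Figure D1:**
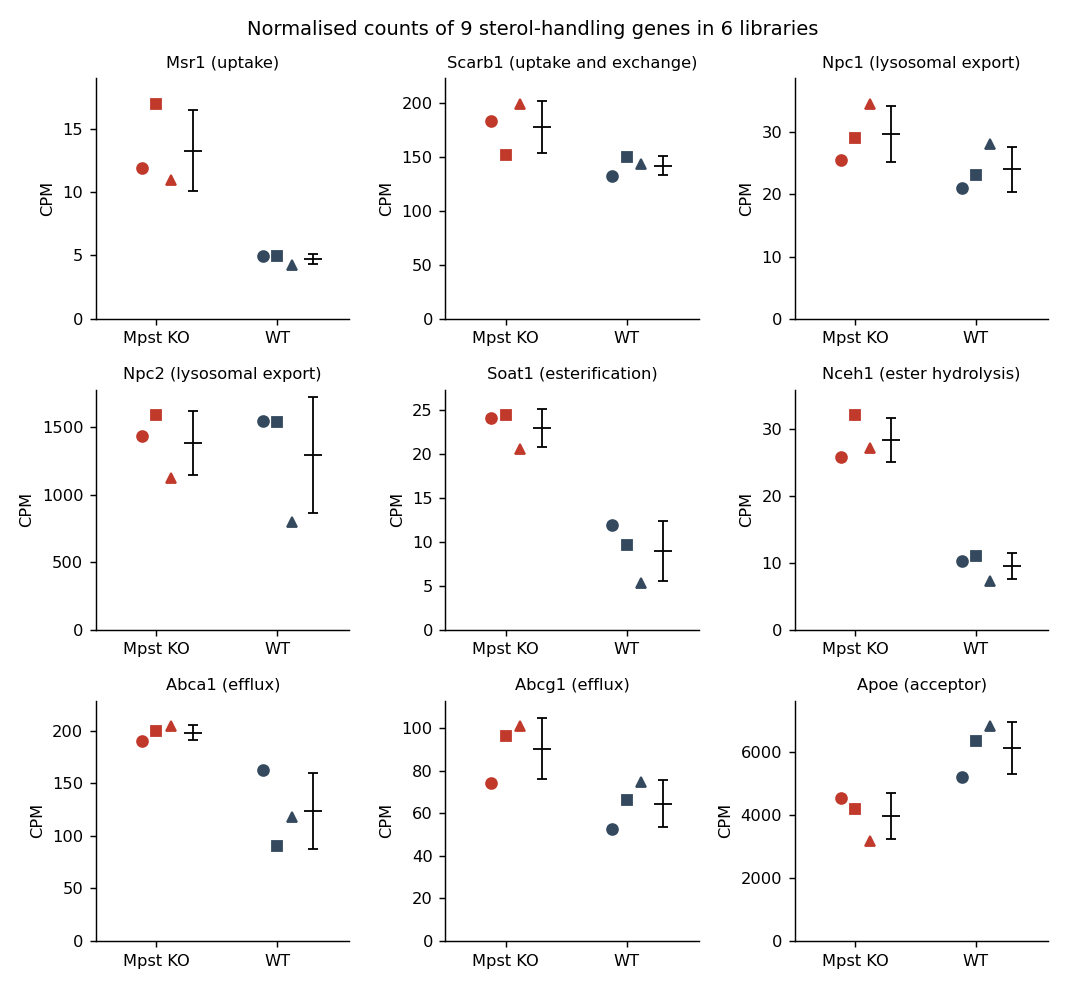
Normalised counts (CPM, linear axes from 0) of the 9 genes in the 3 Mpst knockout libraries (red, left) and the 3 WT libraries (dark, right); circles, squares and triangles are replicates 1, 2 and 3, and bars give the mean and SD. Msr1, Soat1 and Nceh1 stood above every WT library in all 3 knockout libraries by the widest ratios, and Apoe stood below every WT library.

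**Figure D2:**
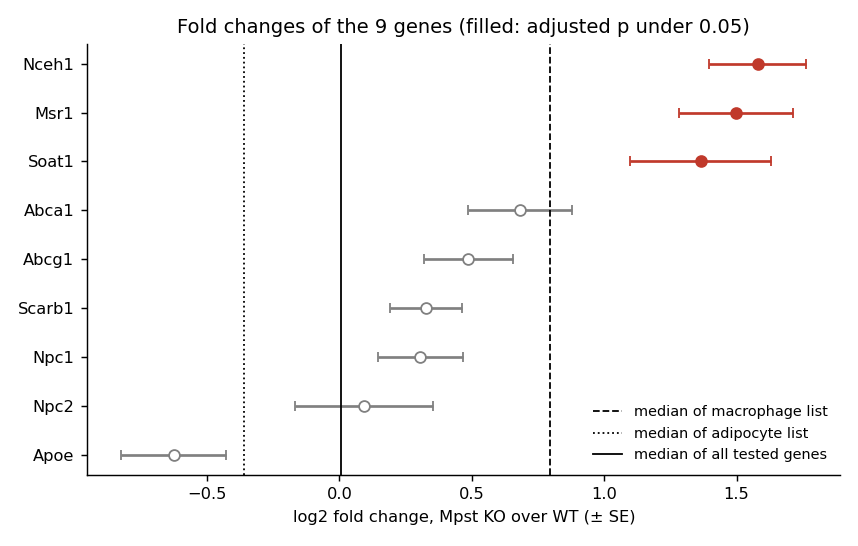
Log2 fold change (knockout over WT) of each of the 9 genes with its standard error, filled where the adjusted p was under 0.05; vertical lines mark the median over all tested genes (0.01), the macrophage list (0.80) and the adipocyte list (−0.36). Nceh1, Msr1 and Soat1 lay between 1.37 and 1.58, and Apoe lay lowest at −0.62.

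Msr1 encodes the class A scavenger receptor, which takes up modified low-density lipoprotein in macrophages. Its raw counts were 100, 385 and 259 in the knockout libraries and 81, 81 and 92 in the WT libraries. As CPM, these were 11.9, 16.95 and 10.99 in knockout, against 4.96, 4.92 and 4.27 in WT. The WT libraries lay close together, and the lowest knockout library was above the highest of them. The log2 fold change was 1.499 (SE 0.22, edgeR adjusted p = 0.0149). The gene lies on chromosome 8 from 39581685 to 39642673 of GRCm38, on the minus strand.

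Scarb1 encodes the high-density lipoprotein receptor SR-BI, which takes up cholesteryl ester selectively and exchanges free cholesterol in both directions. It stood at 183.1, 151.2 and 198.5 CPM in knockout and at 132.1, 149.4 and 143.1 CPM in WT. The groups did not overlap, but knockout replicate 2 was close to the highest WT library, and Scarb1 did not pass (adjusted p = 0.156 by edgeR's test, with a log2 fold change of 0.33 and an SE of 0.13). Msr1 relative to Scarb1 in the same library, as a difference of log2 CPM, was higher in every knockout library than in any WT library. The difference averaged −3.75 ± 0.53 in knockout and −4.88 ± 0.16 in WT (SD, n = 3 each; change 1.13, exact two-sided permutation p = 0.10, adjusted p = 0.250). An exact test of 3 libraries against 3 cannot give a p below 0.10, and 15 such differences were tested.

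Among 16 tested genes of other scavenger and lipoprotein receptors, Stab2 rose and none fell. For this list and those below, the shares over all tested genes were 4.76% higher and 2.65% lower. Stab2, a hyaluronan and scavenger receptor of sinusoidal endothelium, had 1.91, 2.64 and 4.75 CPM in knockout, against 0.981, 0.547 and 0.697 CPM in WT (log2 fold change 2.096, SE 0.42, edgeR adjusted p = 0.0275). These rest on low raw counts, 16, 60 and 112 in knockout and 16, 9 and 15 in WT. Cd36, the fatty acid translocase and class B scavenger receptor, did not pass, although its groups did not overlap, at 4958 ± 268 CPM in knockout and 3432 ± 383 CPM in WT (SD, n = 3 each; log2 fold change 0.53, edgeR adjusted p = 0.0786). The median of the list was 0.25. DESeq2 called Cd36 higher as well, and Gpihbp1, which anchors lipoprotein lipase to capillaries, lower.

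Neither gene of the lysosomal pair passed the test. Npc2, the soluble lysosomal protein that picks up freed cholesterol, had 1434, 1588 and 1125 CPM in knockout, against 1546, 1542 and 798.8 CPM in WT. WT replicate 3 was far below the other WT libraries, and the groups overlapped (log2 fold change 0.09, SE 0.26, edgeR adjusted p = 0.848). Npc1, the membrane protein that exports cholesterol from the lysosome, had 25.5, 29.1 and 34.6 CPM in knockout and 21.02, 23.2 and 28.1 CPM in WT (log2 fold change 0.31, SE 0.16, edgeR adjusted p = 0.252). Its exons share 4.52% of their bases with Rmc1 on the opposite strand, and the library kit does not mark strand, so those reads cannot be assigned with certainty. The difference between Npc1 and Npc2 within a library averaged −5.53 ± 0.44 in knockout and −5.69 ± 0.75 in WT (log2 scale, SD, n = 3 each; exact permutation p = 0.60, adjusted p = 0.692).

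Of 19 genes of lysosomal sterol release and sterol transfer, Lipa, Lamp2 and Osbpl8 rose and none fell, with a list median of 0.17. Lipa encodes the acid lipase that splits lipoprotein cholesteryl esters in the lysosome, the step before NPC2. It had 124.4, 141.9 and 146.5 CPM in knockout, against 72.4, 62.7 and 55.6 CPM in WT, a 2.17-fold difference with no overlap (log2 1.11, SE 0.14, edgeR adjusted p = 0.0119). Lamp2, a lysosomal membrane glycoprotein, rose 1.62-fold (273 ± 21.8 CPM in knockout, 168.8 ± 28.3 CPM in WT; SD, n = 3 each; edgeR adjusted p = 0.0315). Osbpl8, an oxysterol-binding lipid transfer protein at membrane contacts, rose 1.67-fold (43.7 ± 2.02 CPM in knockout, 26.2 ± 5.70 CPM in WT; edgeR adjusted p = 0.0331). Stard4, a cytosolic cholesterol carrier, had the next smallest p and did not pass (log2 fold change 0.51, edgeR adjusted p = 0.12). DESeq2 called Anxa6, also of this list, lower.

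Soat1 encodes the enzyme that esterifies cholesterol in macrophages, and Nceh1 a hydrolase of stored cholesteryl esters, so that the pair catalyses opposite reactions. In GRCm38, Soat1 spans bases 156424525 to 156474331 of chromosome 1 (minus strand) and Nceh1 bases 27182965 to 27284608 of chromosome 3 (plus strand). Soat1 had 24.1, 24.4 and 20.5 CPM in knockout, against 11.95, 9.66 and 5.29 CPM in WT. The knockout libraries lay close together, the WT libraries ranged widely, and the groups did not overlap (log2 fold change 1.37, SE 0.27, edgeR adjusted p = 0.0264). Nceh1 had 25.8, 32.0 and 27.1 CPM in knockout, against 10.2, 11 and 7.29 CPM in WT. Every knockout library was well above every WT library (log2 fold change 1.58, SE 0.18, edgeR adjusted p = 0.0119). Ordered by p, it was number 14 of the 14065 genes.

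A change in the balance between the pair was not resolved. The exact test of 3 libraries against 3 cannot give a p below 0.10, and the SD was 0.34 in WT, so a change is not excluded. Soat1 minus Nceh1 within a library was −0.10, −0.39 and −0.40 in knockout and 0.22, −0.18 and −0.45 in WT on the log2 CPM scale. The mean change was −0.15 (exact permutation p = 0.70, adjusted p = 0.70), and it turned to 0.03 without WT replicate 1. Soat2, the liver and intestine isoform of the esterifying enzyme, had at most 14 counts in a library and was not tested.

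Of 6 tested genes of ester storage and hydrolysis, Lipe fell and none rose, with a list median of −0.32. Lipe encodes hormone-sensitive lipase, which in adipocytes hydrolyses diacylglycerol and also cholesteryl esters. It had 1656, 1525 and 1370 CPM in knockout, against 2075, 2597 and 2708 CPM in WT (log2 fold change −0.70, SE 0.17, edgeR adjusted p = 0.0415). Plin2, a coat protein of lipid droplets found in foam cells, had 999.4 ± 131 CPM in knockout and 610.2 ± 161 CPM in WT (SD, n = 3 each). Its groups did not overlap, and it did not pass (log2 fold change 0.71, edgeR adjusted p = 0.0750), although DESeq2 called it higher. Ces1d, also of this list, had 1106 ± 68.8 CPM in knockout and 1690 ± 439.5 CPM in WT. Its groups did not overlap either, and it did not pass (log2 fold change −0.61, edgeR adjusted p = 0.0931), although DESeq2 called it lower.

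Abca1 passes cholesterol and phospholipid to lipid-poor apolipoproteins. It had 190.3, 199.6 and 203.9 CPM in knockout, against 162.1, 90.4 and 117.6 CPM in WT. The knockout libraries were nearly equal while the WT libraries ranged widely, and the groups did not overlap. The gene did not pass edgeR's test (log2 fold change 0.68, SE 0.20, adjusted p = 0.0666). It passed with DESeq2 (0.67, adjusted p = 0.0172) and without WT replicate 1, its highest WT library (0.93, edgeR adjusted p = 0.0234). These were 1 of 7 alternatives in scaling, tool, filter or robustness and 1 of 6 fits with a library left out. Among the other fits with a library left out, the edgeR adjusted p of Abca1 reached 0.198. Abcg1, which hands cholesterol to mature high-density lipoprotein, had 74.0, 96.0 and 100.7 CPM in knockout, against 52.6, 66.1 and 74.8 CPM in WT. Knockout replicate 1 was just below WT replicate 3, so the groups overlapped (log2 fold change 0.49, SE 0.17, edgeR adjusted p = 0.104). Without WT replicate 3, its highest WT library, the log2 fold change of Abcg1 was 0.61 (edgeR adjusted p = 0.0251). It was called in that 1 of 6 fits with a library left out, and the adjusted p of the others reached 0.269. Of the 7 alternatives in scaling, tool, filter or robustness, 0 called Abcg1. Both transporters passed with the replicate number as a block.

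Apoe, a cholesterol acceptor secreted by macrophages and adipocytes, ran the other way. It had 4556, 4208 and 3165 CPM in knockout, against 5219, 6350 and 6828 CPM in WT. Every knockout library was below every WT library, but the gene did not pass edgeR's test (log2 fold change −0.62, SE 0.20, adjusted p = 0.0854), while DESeq2 called it lower (−0.64, adjusted p = 0.00873). Its neighbour in function Apoc1, an apolipoprotein also made by macrophages, had 120.2 ± 18.6 CPM in knockout and 189.4 ± 33.8 CPM in WT (SD, n = 3 each; log2 fold change −0.66, edgeR adjusted p = 0.0509). DESeq2 called Apoc1 lower. Of the 12 tested genes of efflux partners, apolipoproteins and acceptors, Pltp and Abca9 rose and none fell, and the median was −0.10. Pltp, the phospholipid transfer protein that remodels high-density lipoprotein, had 406.5, 378.7 and 416.9 CPM in knockout, against 207.8, 249.8 and 173.2 CPM in WT (log2 fold change 0.93, SE 0.16, edgeR adjusted p = 0.0174). Abca9, a transporter of the ABCA subfamily, rose 2.05-fold (edgeR adjusted p = 0.0415).

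Liver X receptors are nuclear receptors that sense oxysterols, and Abca1, Abcg1, Apoe and Pltp are textbook targets. The receptor genes themselves did not pass, although both were lower in every knockout library than in any WT library. Over all tested genes, 15.5% were lower without overlap. Nr1h3, which encodes LXR-alpha, had 172.6 ± 8.57 CPM in knockout and 208.9 ± 13.6 CPM in WT (SD, n = 3 each; log2 fold change −0.28, edgeR adjusted p = 0.164), and Nr1h2, LXR-beta, had 76.9 ± 5.04 CPM in knockout and 96.9 ± 16.9 CPM in WT (−0.33, edgeR adjusted p = 0.172). Of 15 genes in the list of the receptors, their partners and targets and oxysterol enzymes, Mylip rose and none fell, with a median of −0.18. Of all tested genes, 4.76% rose and 2.65% fell. Without overlap, 4 genes of the list were higher and 4 lower. Mylip, which encodes the ligase that marks the low-density lipoprotein receptor for breakdown, had 77.4, 72.9 and 89.9 CPM in knockout, against 41.6, 55.0 and 58.2 CPM in WT (log2 fold change 0.63, SE 0.15, edgeR adjusted p = 0.0428). Arl4c, another known target, did not pass (log2 fold change 0.55, edgeR adjusted p = 0.0687). Of this list, DESeq2 called Mylip and Arl4c higher and Cyp27a1 and Rxrb lower. Over all tested genes it called 1074 higher and 894 lower.

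**Figure D3:**
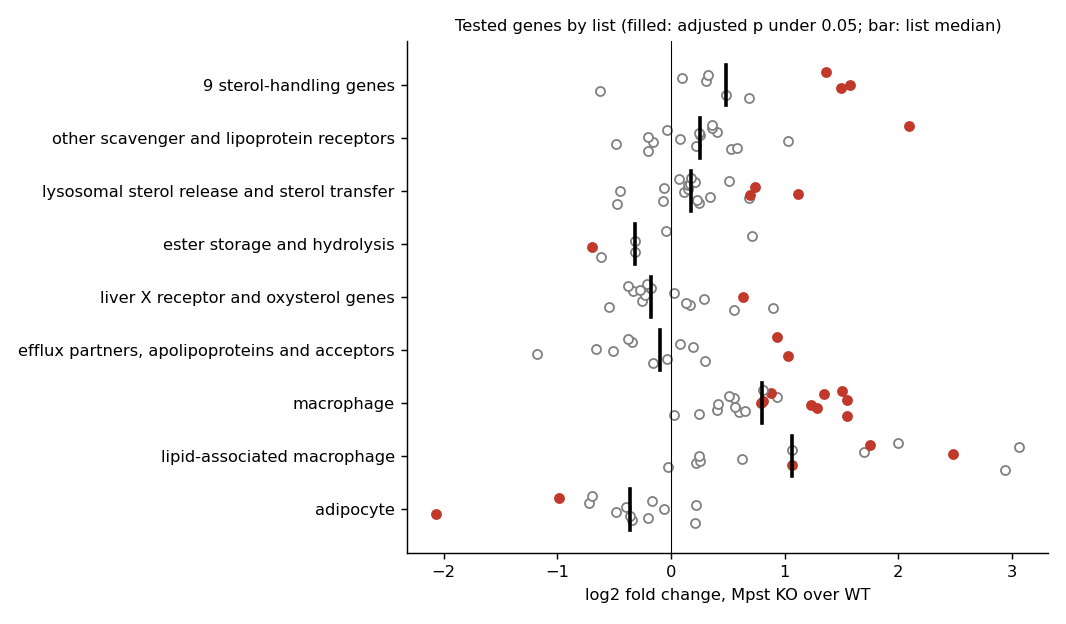
Log2 fold change (knockout over WT) of each tested gene in the 9 sterol-handling genes, 5 lists of related sterol genes and 3 cell type lists; filled points passed edgeR's test at an adjusted p under 0.05, and black bars are list medians. In the 5 sterol lists 7 of 68 tested genes rose and 1 fell, while 9 of 20 macrophage genes rose. Over all tested genes, 4.76% rose and 2.65% fell.

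RefSeq windows of the 250 bases before a start site (GRCm38.p6) were given for 5 of the 9 genes, Soat1, Nceh1, Abca1, Npc2 and Apoe, in 7 windows. Those of both enzymes of the ester cycle and of Abca1 are printed, from 5′ to 3′ on the gene's strand. Capitals mark matches to the motifs searched on both strands, which were TCACGTGA (bound by TFEB, a lysosome regulator), DR4 (the liver X receptor element, exact letters only), TCACNCCAC (sterol regulatory element), GAGGAAGT (bound by PU.1, a myeloid factor), TTGCNNAAT (bound by C/EBP factors) and TATAAA (a core promoter box).
Soat1 (chr1:156474329-156474578, minus strand): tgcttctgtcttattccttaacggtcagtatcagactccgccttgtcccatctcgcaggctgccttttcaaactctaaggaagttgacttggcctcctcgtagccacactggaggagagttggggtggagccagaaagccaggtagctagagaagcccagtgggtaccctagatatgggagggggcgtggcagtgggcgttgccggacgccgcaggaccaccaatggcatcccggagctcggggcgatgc
Nceh1 (chr3:27182754-27183003, plus strand): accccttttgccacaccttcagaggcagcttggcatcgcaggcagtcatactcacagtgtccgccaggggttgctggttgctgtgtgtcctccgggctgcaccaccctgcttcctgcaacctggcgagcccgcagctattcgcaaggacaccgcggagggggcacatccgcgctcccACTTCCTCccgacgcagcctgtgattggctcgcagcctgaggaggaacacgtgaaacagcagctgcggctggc
Abca1 (chr4:53159896-53160145, minus strand): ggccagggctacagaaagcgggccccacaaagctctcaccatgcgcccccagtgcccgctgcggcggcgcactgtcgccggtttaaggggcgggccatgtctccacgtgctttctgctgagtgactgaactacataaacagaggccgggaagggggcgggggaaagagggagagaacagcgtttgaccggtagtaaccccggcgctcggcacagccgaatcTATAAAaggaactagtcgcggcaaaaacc
The Nceh1 window holds GAGGAAGT on the strand opposite to the gene, beginning 73 bases before the start site, and 2.44% of all 32851 windows hold it. TATAAA begins 29 bases before the start site of Abca1, and 12.4% of all windows hold it. One window of Apoe also held TATAAA, with no other match in the windows of the 5 genes. The share of all windows with a match was 0.785% for TCACGTGA, 0.0152% for DR4, 1.05% for TCACNCCAC and 2.11% for TTGCNNAAT. Natural receptor elements often depart from the exact letters, and no match says only that these letters are not in the window.

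Macrophage transcripts as a list were higher in the knockout, as the called genes were. Of 20 macrophage genes, 9 rose and none fell, with a median log2 fold change of 0.80. Adgre1, which encodes F4/80, had 76.5, 91.3 and 103.3 CPM in knockout, against 44.8, 28.3 and 19.6 CPM in WT (log2 fold change 1.55, SE 0.27, edgeR adjusted p = 0.0191). Itgam, the integrin CD11b, rose by 1.55 on the log2 scale (edgeR adjusted p = 0.0119), Mpeg1, a pore-forming protein, by 1.35 (adjusted p = 0.0174) and Cybb, a phagocyte oxidase subunit, by 1.23 (adjusted p = 0.0298). The summed level of the list was 2723 to 3029 CPM in knockout and 1164 to 2181 CPM in WT, and no gene of the list was at 0 in either group. Of 13 genes of lipid-associated macrophages, Gpnmb, Cd9 and Spp1 rose and none fell, with a median of 1.06. Spp1, the secreted protein osteopontin, rose by 1.75 (edgeR adjusted p = 0.0302) and Cd9, a tetraspanin, by 1.06 (adjusted p = 0.0149). Gpnmb, a glycoprotein of lipid-laden macrophages, had 175.7, 205.7 and 129.9 CPM in knockout, against 41.9, 29.5 and 20.01 CPM in WT (log2 fold change 2.48, edgeR adjusted p = 0.0119). The 13 adipocyte genes had a median of −0.36, 2 of them, Cfd (adipsin, log2 fold change −2.06, edgeR adjusted p = 0.0144) and Retn (resistin, −0.98, adjusted p = 0.0229), fell, and their sum was 52340 to 58430 CPM in knockout and 70090 to 81360 CPM in WT. The calls of both lists depended on single libraries, and so did those over all tested genes. Over all tested genes, 41 were called higher and 5 lower without knockout replicate 1. The counts were 1 and 1 without knockout replicate 2, 1 and 2 without knockout replicate 3 and 0 and 1 without WT replicate 2. They were 538 and 263 without WT replicate 1, 1434 and 1167 without WT replicate 3 and 1074 and 894 with DESeq2. Of the lipid-associated macrophage list, 1 gene (Gpnmb) was called higher without knockout replicate 1, 0 without knockout replicate 2, knockout replicate 3 or WT replicate 2, 3 without WT replicate 1, 8 without WT replicate 3 and 8 with DESeq2. Of the adipocyte list, 0 genes were called lower without knockout replicate 1, 2 or 3 or WT replicate 2, 4 without WT replicate 1, 2 without WT replicate 3 and 4 with DESeq2. The part of these shifts in the changes of Msr1, Soat1 and Nceh1 was not tested.

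The 9 genes were also set against the macrophage list of the same library. The mean log2 CPM of that list was itself 0.871 higher in knockout than in WT. Soat1 minus the mean log2 CPM of the 20 macrophage genes was −1.77, −1.96 and −2.19 in knockout and −2.38, −2.42 and −2.77 in WT. The same difference for Nceh1 was −1.67, −1.57 and −1.79 in knockout and −2.60, −2.23 and −2.32 in WT. Both genes were thus higher relative to the list in every knockout library, by 0.55 and 0.71 (exact permutation p = 0.10 and adjusted p = 0.250 for each). Msr1 was higher by 0.58, with knockout replicate 3 at −3.08 and WT replicate 3 at −3.07, so that the groups touched (exact permutation p = 0.20, adjusted p = 0.3). With the lipid-associated macrophage list in place of the macrophage list, the changes were 0.09 for Nceh1, −0.06 for Soat1 and −0.03 for Msr1 (exact permutation tests, adjusted p = 0.75, 0.75 and 1).

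Npc2 and Apoe were lower relative to the macrophage list in every knockout library. Because the list mean rose by 0.871, a gene with unchanged CPM is lower by about that much on this scale. In CPM, Npc2 did not pass and its groups overlapped (log2 fold change 0.09). Apoe minus the list was 5.79, 5.47 and 5.07 in knockout and 6.38, 6.92 and 7.53 in WT, a change of −1.50, and the change of Npc2 was −0.73 (exact permutation p = 0.10 and adjusted p = 0.250 for each). Abca1 (−0.15, exact permutation p = 0.70) and Abcg1 (−0.39, exact permutation p = 0.50) overlapped between the groups on this scale, as did Scarb1 (−0.55) and Npc1 (−0.57, exact permutation p = 0.20 for both). Between members, Msr1 minus Abcg1 was higher in knockout without overlap, at −2.77 ± 0.37 against −3.73 ± 0.36 in WT (SD, n = 3 each; exact permutation p = 0.10, adjusted p = 0.250). Msr1 minus Abca1 changed by 0.73 (exact permutation p = 0.20) and Abca1 minus Abcg1 by 0.24 (exact permutation p = 0.60), both with overlap. Against the lipid-associated macrophage list, the changes were −0.76 for Abca1, −0.997 for Abcg1, −1.16 for Scarb1, −1.18 for Npc1, −1.34 for Npc2 and −2.12 for Apoe, each with an adjusted p of 0.3 or 0.333 by the exact permutation test.

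**Figure D4:**
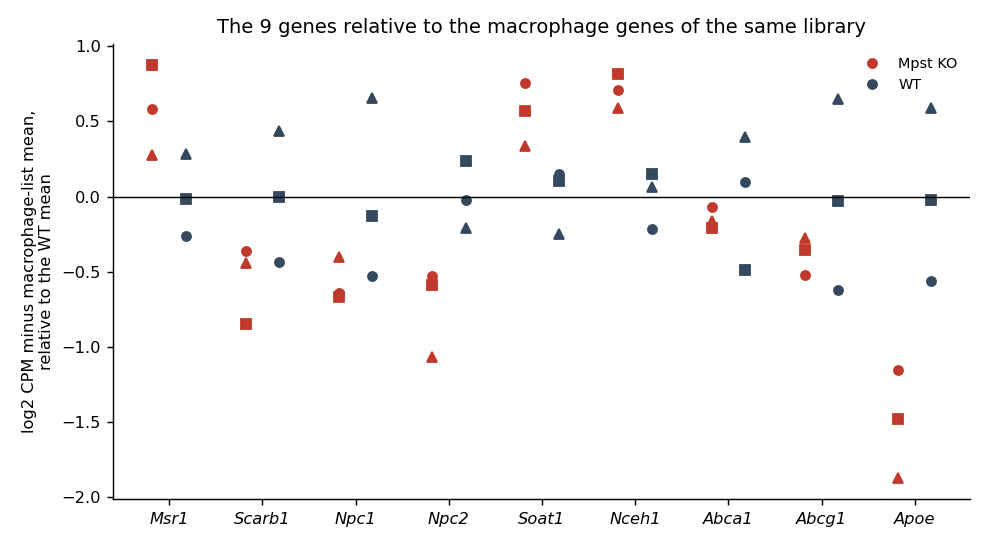
Log2 CPM of each of the 9 genes minus the mean log2 CPM of 20 macrophage genes in the same library, set to 0 at the WT mean; red points are Mpst knockout, dark points WT, and circles, squares and triangles are replicates 1, 2 and 3. Soat1 and Nceh1 lay above all WT points, Npc2 and Apoe below them, and the other 5 genes overlapped. The list mean itself was 0.871 higher in knockout, so a gene with unchanged CPM lies below 0 in knockout.

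The genes also differed in how they varied among the WT libraries. Msr1, Soat1, Nceh1 and Npc2 were lowest in WT replicate 3, which also had the lowest summed macrophage level, 1164 CPM. Abcg1, Npc1 and Apoe were highest in that library. Abca1 was highest in WT replicate 1, and Msr1 stayed between 4.27 and 4.96 CPM in the WT libraries.

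Levels between genes were compared per kilobase of exon, in CPM per kilobase, and spanned from Apoe to Msr1. Apoe averaged 1860 in knockout and 2870 in WT, and Npc2 254 in knockout and 238 in WT. Scarb1 (20.9 in knockout, 16.7 in WT), Abca1 (19.1 and 11.9) and Abcg1 (12.4 and 8.84) followed. In knockout, Scarb1 ranged from 17.8 to 23.4 and Abca1 from 18.4 to 19.7, so these neighbours did not separate. In WT, Abca1 (8.73 to 15.6) overlapped both Scarb1 (15.5 to 17.6) and Abcg1 (7.21 to 10.2). Nceh1 averaged 5.38 in knockout and 1.81 in WT, Npc1 2.62 and 2.13, Soat1 2.35 and 0.916 and Msr1 2.09 and 0.744. Nceh1 was above Npc1 in every knockout library and overlapped it in WT. Npc1, Soat1 and Msr1 overlapped with their neighbours in knockout, and in WT Npc1 stood above the other two, which overlapped.

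For each called gene, the tested genes with the closest values over the 6 libraries were found by the root mean square difference of log2 CPM from the WT mean, among genes of at least 5 CPM. The values share libraries and depth, and the measure describes likeness only. Closest to Soat1 were Cd68, a lysosomal glycoprotein of macrophages (root mean square difference 0.12), and the myeloid C-type lectin receptors Clec12a (0.12) and Clec7a (0.13). Closest to Nceh1 were Itgam (0.11), Zranb3, a DNA repair helicase (0.12), and Arhgap25 (0.15). Closest to Msr1 were Rnf149, a ubiquitin ligase (0.16), Cpeb2, an RNA-binding protein (0.17), and Zranb3 (0.17).

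Leaving out any knockout library or WT replicate 2 ended most of the calls, over all tested genes as well as among the members. With all libraries, 669 of all tested genes were called higher. The number was 41 without knockout replicate 1, 1 without knockout replicate 2, 1 without knockout replicate 3 and 0 without WT replicate 2. It was 538 without WT replicate 1 and 1434 without WT replicate 3. Where so few genes are called, a missing call does not set a gene apart. Without knockout replicate 1 only Nceh1 kept its call, with edgeR adjusted p = 0.0913 for Soat1 and 0.0513 for Msr1. No member was called without knockout replicate 2 (adjusted p = 0.0870 for Soat1, 0.0595 for Nceh1, 0.0598 for Msr1), without knockout replicate 3 (0.0778, 0.0502 and 0.0502 in the same order) or without WT replicate 2 (0.12, 0.0860 and 0.0933). With each library left out, the log2 fold changes ranged from 1.09 to 1.64 for Soat1, 1.42 to 1.70 for Nceh1 and 1.28 to 1.62 for Msr1. Over the 68 genes of the sterol lists, of which 7 rose with all libraries, the number called higher was 1 without knockout replicate 1, 0 without knockout replicate 2, knockout replicate 3 or WT replicate 2, 5 without WT replicate 1 and 9 without WT replicate 3. Of the macrophage list, 1 gene was called higher without knockout replicate 1, 0 without knockout replicate 2, knockout replicate 3 or WT replicate 2, 9 without WT replicate 1 and 11 without WT replicate 3.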

How the data were processed

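RNA sequencing was analysed for 6 libraries of inguinal white adipose tissue, 3 Mpst knockout and 3 wild type. Per the labels' protocols, the TruSeq RNA v2 kit was used, an unstranded protocol, with single-end reads. The submitters' processing notes name HISAT2 2.1.0, HTSeq 0.13.5, DESeq2 1.26 and the build mm10; no source used here states the annotation or the counter's settings. The files deposited hold raw counts per gene symbol for 24984 genes, and 5 summary lines per file were left out. Reads in no feature made up 8.85% to 14.7% of the gene, no-feature and ambiguous reads.

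The test was run with edgeR 4.0.16 under R 4.3.3: filterByExpr (14065 genes kept), trimmed mean of M-values scaling and a robust quasi-likelihood F test of genotype on all 6 libraries, with Benjamini-Hochberg adjustment over all tested genes and calls under 0.05. The SE is the log2 fold change over the square root of F. The biological coefficient of variation common to all genes was 19.5%. Means and SDs of CPM cover 3 libraries. The fit was tested on simulated data. Within-library differences were of log2 CPM (prior count 2), with exact two-sided permutation tests. Positions and exon lengths came from GENCODE M21 (GRCm38), by symbol. Every pair of replicates in a group differed beyond counting noise (chi-square per gene 7.94 to 124).

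Members and lists were chosen with earlier results of these data known. Text names all members, Mpst, the 4 called genes of smallest p in each sterol, macrophage, lipid-associated macrophage and adipocyte list (or, where fewer than 2 are called, up to 2 by p) and the 3 genes nearest to each called member; other named genes were chosen after their values were seen. Alternatives were other scalings, DESeq2 1.42.0, limma-voom (limma 3.58.1), other filters, a fit that is not robust, the replicate number as a block and each library left out.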

Additional observations from a re-analysis of the deposited data

How the results depend on the processing

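Under relative log expression or upper-quartile scaling, limma-voom, no low-count filter and the fit that was not robust, Soat1, Nceh1 and Msr1 kept their calls, as Soat1 and Nceh1 did among genes of at least 10 CPM on average, where Msr1 was not tested. Main counts were 669 genes higher and 373 lower, 3 members higher and 0 lower, and 7 genes of the sterol lists higher and 1 lower. DESeq2 called 1074 genes higher and 894 lower. Of the members it called 4 higher (Abca1, Msr1, Nceh1 and Soat1) and 1 lower (Apoe), and of the sterol lists 10 genes higher and 7 lower. Without a low-count filter, 7 genes of the sterol lists were higher and 2 lower. With each library left out, genes called ranged from 0 to 1434 higher and from 1 to 1167 lower, members from 0 to 4 higher, genes of the sterol lists from 0 to 9 higher and 0 to 4 lower, and the members' median log2 fold change from 0.365 to 0.613. Without both libraries highest in muscle transcripts (knockout replicate 3 and WT replicate 2, an alternative added after seeing the data), 0 genes were higher and 1 lower, 0 members and 0 genes of the sterol lists were called, and the log2 fold changes of Soat1, Nceh1 and Msr1 were 1.502, 1.73 and 1.66.

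The labels do not say that same-numbered libraries are pairs, so the numbers are not taken as pairs. Same-numbered libraries deviated from their group means with correlations of 0.17, −0.10 and 0.30. Knockout replicates 1 and 3 correlated best with the WT library of the same number, and knockout replicate 2 with WT replicate 1. These values do not decide whether the libraries are paired. With the replicate number as a block, 1387 genes were higher and 1289 lower, 5 members were higher (Abca1 and Abcg1 besides the 3) and 14 genes of the sterol lists higher and 5 lower.

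With each library left out, the log2 fold change of Npc2 ranged from −0.154 to 0.249, below 0 without knockout replicate 2 (−0.018) and WT replicate 3. Knockout minus WT, the within-library difference of Npc1 and Npc2 ranged from −0.097 to 0.590 (below 0 without knockout replicate 3, WT replicate 1 or WT replicate 2), that of Soat1 and Nceh1 from −0.312 to 0.026 (above 0 without WT replicate 1), and that of Abca1 and the macrophage list from −0.393 to 0.048 (above 0 without WT replicate 3). Against the lipid-associated macrophage list, Soat1 changed by −0.061, Msr1 by −0.034 and Nceh1 by 0.094, and the other 6 members by −0.761 (Abca1) to −2.116 (Apoe). The cause of these shifts was not tested. Among the members, depth limits Msr1 most, with 81 counts in its lowest libraries.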

Other observations

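Genes of other cell types in the same libraries, chosen after their values were seen, included matrix and progenitor transcripts. Of 9 fibroblast and progenitor genes, Dcn, Lum and Col3a1 rose and none fell, with Lum, a small leucine-rich proteoglycan, at 267.8 ± 44.0 CPM in knockout and 96.0 ± 50.04 CPM in WT (SD, n = 3 each; log2 fold change 1.48, edgeR adjusted p = 0.0352). None of these genes was called without knockout replicate 1, 2 or 3 or without WT replicate 2. In those settings 41, 1, 1 and 0 of all tested genes were called higher, in that order. Pi16, a marker of adventitial progenitors, had 24.2 ± 9.44 CPM in knockout and 102.7 ± 65.4 CPM in WT and did not pass (edgeR adjusted p = 0.109). No gene of the 7 tested T cell genes or the 6 tested B cell genes passed edgeR's test, with 3 and 0 of them higher at an unadjusted p under 0.05, against 2094 of all 14065 tested genes. All 7 T cell genes had a log2 fold change above 0, with a median of 0.97. Without overlap of the groups, 1 of them, Lck, was higher, against 17.8% of all tested genes. DESeq2 called 2 of the T cell genes higher, Cd8a and Lck, and 0 of the B cell genes, against 1074 of all tested genes. Cd8a was high in knockout replicate 3 alone, with 1.79, 1.98 and 9.59 CPM in knockout, against 1.10, 0.790 and 1.997 CPM in WT. Epithelial keratins were at or near 0, with at most 5 counts of Krt18 in a library.

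Several sterol genes of the intestine and liver were too low to test. Abcg5 and Abcg8, which export sterols into gut and bile, had at most 1 and 2 counts in a library, and Apoa1 had at most 9. Olr1, an oxidised lipoprotein receptor, had at most 18 counts.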
